A study of Mus musculus with 12 samples.

Results

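The genes described here are 9 transcriptional regulators of skeletal muscle: the sine oculis homeobox factors Six2, Six4 and Six5, the Eya cofactors Eya1, Eya2 and Eya4, and the fibre type factors Tbx15, Sox6 and Prox1. They were chosen by gene name, with earlier results of these data known, from 27745 gene names of the array's non-control features. Every probe with one of these names was taken. The genes had 20 probes, of which 17 passed the filter on dim probes and were tested. Each of the 9 genes kept at least 1 probe.

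Proteins of the Six2, Six4 and Six5 family are homeodomain factors that bind DNA, including the MEF3 site of muscle gene promoters. Eya proteins bind no DNA themselves and join these factors as transactivating cofactors and phosphatases, a partnership that acts upstream of the myogenic determination genes in the embryo and on fast muscle genes in the adult. Of the fibre type factors, Tbx15 is a T-box factor found in glycolytic fibres, Sox6 is an HMG-box factor that represses slow fibre genes in fast fibres, and Prox1 is a homeobox factor of slow fibres that is also the identity factor of lymphatic endothelium.

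RNA was measured on 12 one-colour arrays in 4 groups of 3. Soleus muscle, which is slow and oxidative, and extensor digitorum longus (EDL) muscle, which is fast and glycolytic, came from male CD1 mice aged 3 months, with no genetic change or treatment given. Each muscle sample pooled that muscle from both hind limbs of 1 mouse. Whether the EDL and soleus samples of the same replicate number came from the same mouse is not stated in the labels. C2C12 myotubes are the fused cells of a mouse muscle cell line, kept for 96 hours in a low-serum differentiation medium and then separated from most mononucleated cells by trypsin detachment and a short replating. C2C12 myoblasts are the proliferating cells of the same line, taken at about 50% confluence in growth medium. Both cultures come from 1 established line, and whole muscle also holds nerve, vessel, connective tissue and immune cells. Adult muscle as a whole was thus set against nearly pure cultured cells, and in such bulk samples fewer cells of a type and less RNA per cell cannot be told apart. Separate growth of the cultures within a group is not stated in the labels, and a p-value therefore covers the spread of these samples alone, which may be technical.

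Levels below are log2 signals scaled to the 75th percentile of the array, and they compare groups for 1 probe, not probes with each other. A difference is the first group minus the second on this log2 scale, with its standard error (SE) and limma's p-value adjusted over all tested probes by the Benjamini-Hochberg method. A probe was called higher or lower where that p was under 0.05 and the difference was 1 or more in size. A group in which no array read a probe well above background has only an upper limit, so its fold is given as "at least". No spot was saturated. Precision is limited by having 3 arrays in a group.

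The labels of the muscles were checked against fibre genes. Of 19 tested probes for slow fibre genes, 18 were higher and 0 lower in soleus than in EDL, with a median difference of 4.73. Of 22 probes for fast fibre genes, 2 were higher, both of Myh2, and 11 were lower, with a median of -1.06. The lowest correlation between replicate arrays across probes was 0.981 in soleus, 0.982 in EDL, 0.986 in myotubes and 0.988 in myoblasts. The 75th percentile of the signal was 457 to 614 on soleus and 466 to 595 on EDL arrays, against 1018 to 1230 on myotube and 1048 to 1556 on myoblast arrays. Scaling by the spike-in RNA instead moved the median of all probes by -0.28 in soleus minus EDL, -1.22 in soleus minus myotube, -0.94 in EDL minus myotube, -0.34 in myotube minus myoblast, -1.56 in soleus minus myoblast and -1.28 in EDL minus myoblast. All differences are therefore relative to the 75th percentile. Of all calls, 52.6% were higher in soleus minus EDL, 54.8% in soleus minus myotube, 56.0% in EDL minus myotube, 52.3% in myotube minus myoblast, 53.3% in soleus minus myoblast and 54.7% in EDL minus myoblast. With spike-in scaling these shares were 35.6%, 17.6%, 23.5%, 36.5%, 18.6% and 23.0%, and with normexp background correction the share in soleus minus EDL was 37.2%.

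The promoters of 6 of the 9 genes, with 14 transcription starts, were matched in RefSeq (build GRCm38.p6); Eya1, Eya2 and Tbx15 were not matched. The 250 bases before each start were searched on both strands for TCAGGTT (the core of the MEF3 site bound by these homeodomain factors), CAGCTG (an E-box of the kind bound by myogenic bHLH factors) and AACAAT (a core bound by Sox proteins). No matched bases of different motifs overlapped here. TCAGGTT was found in 3.49% of all 32851 promoter entries of this length, CAGCTG in 13.0% and AACAAT in 9.42%. The sequences below are shown because they hold a MEF3 core in Six4 and in Sox6, and the Sox core and E-box of Sox6, with the matches in capitals and each read 5′ to 3′ along the gene.
Six4, MEF3 core on the opposite strand, chr12:73113324-73113353, minus strand, 97 bases before the start: ggcctgggggaAACCTGAtcggccagatcc
Sox6, MEF3 core, chr7:115824900-115824929, minus strand, 208 bases before 1 of its starts: ttcacaaaaatTCAGGTTccatagacagga
Sox6, Sox core on both strands, chr7:115824929-115824958, minus strand, before the same start: tttctttctttcAACAATgcttgATTGTTt
Sox6, E-box, chr7:115846279-115846308, minus strand, before another start: agtcttgttcagCAGCTGacttaagtgttg

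The next 2 sequences are the 250 bases before the outermost starts of Six2 and Prox1, the genes with the largest differences in opposite directions between the muscles. Neither holds any of these letters, which says nothing about the binding of a factor.
Six2, chr17:85688255-85688504, minus strand: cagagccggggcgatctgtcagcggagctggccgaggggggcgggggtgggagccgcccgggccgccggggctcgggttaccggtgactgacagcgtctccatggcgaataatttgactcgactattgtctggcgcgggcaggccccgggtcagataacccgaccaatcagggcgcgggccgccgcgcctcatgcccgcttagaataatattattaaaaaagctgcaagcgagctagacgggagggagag
Prox1, chr1:190170828-190171077, minus strand: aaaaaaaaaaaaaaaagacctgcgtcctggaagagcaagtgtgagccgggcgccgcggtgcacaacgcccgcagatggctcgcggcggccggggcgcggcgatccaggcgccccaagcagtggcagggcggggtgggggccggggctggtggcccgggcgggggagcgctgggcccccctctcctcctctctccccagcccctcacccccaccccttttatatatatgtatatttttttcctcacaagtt

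Six2 was highest in EDL. Its probe (A_51_P354224; array design coordinates, build mm8, chr17:85592972-85593031, minus strand) read 3.61, 4.67 and 4.73 in soleus, 8.59, 8.48 and 8.22 in EDL, 1.76, 1.32 and 1.16 in myotubes, and 2.04, 1.45 and 1.31 in myoblasts. It was well above background on all 3 EDL arrays, on 2 of 3 soleus arrays and on no culture array. The 4 groups fell in the order EDL, soleus and then the cultures, and only the cultures overlapped each other. In soleus it was 17.1-fold lower than in EDL (difference -4.09, SE 0.31, adjusted p = 6.1e-06), and on the 3 slides the difference was -4.98, -3.82 and -3.49. Soleus replicate 1 was not well above background, so the fold and the first of these slide differences are not exact. Against myotubes it was at least 31.2-fold higher in EDL (adjusted p = 1.1e-08). It was also called higher in soleus (adjusted p = 1.1e-05). No size is given there, because soleus replicate 1 was itself not well above background. With normexp background correction the calls against myotubes ended, at 2.57 in EDL (adjusted p = 0.076) and 1.74 in soleus (adjusted p = 0.197). The soleus minus EDL call ended too (-0.83, adjusted p = 0.643).

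Six4, which acts in limb myogenesis, had the narrowest range of the 3 sine oculis genes. Its probe (A_52_P420340; chr12:74019460-74019519, minus strand) read 8.91, 8.48 and 8.68 in soleus, 8.30, 8.01 and 8.05 in EDL, 7.54, 7.04 and 7.60 in myotubes, and 7.73, 7.56 and 7.83 in myoblasts. Soleus arrays were all above those of the other 3 groups, and only myotubes and myoblasts overlapped. It rose in soleus over myotubes by 1.29 (SE 0.17, adjusted p = 5.7e-05), a call that spike-in scaling ended (0.07). Soleus minus EDL was 0.57 (SE 0.17, adjusted p = 0.029), which is under the size set for a call.

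Six5, a homeobox factor whose gene neighbours the myotonic dystrophy kinase gene, was lowest in myotubes. Its probe (A_51_P219385; chr7:18256610-18256669, plus strand) read 8.59, 8.80 and 8.93 in soleus, 8.04, 8.28 and 8.31 in EDL, 5.75, 6.25 and 6.20 in myotubes, and 7.39, 7.61 and 7.76 in myoblasts, with no overlap between any groups. It fell in myotubes, against myoblasts, by 1.52 (SE 0.16, adjusted p = 1.3e-05). It was higher in both muscles than in myotubes, by 2.71 in soleus (adjusted p = 1.0e-07) and 2.14 in EDL (adjusted p = 6.2e-07). With spike-in scaling the EDL value was 1.20 and its call ended (adjusted p = 0.0502). Soleus minus EDL was 0.57 (SE 0.16, adjusted p = 0.022) and was not called.

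Eya1, the Eya cofactor most studied in fast fibres, was also lowest in myotubes. Its brighter probe (A_52_P36315; chr1:14154286-14154345, minus strand) read 11.13, 11.10 and 11.16 in soleus, 11.98, 11.97 and 12.09 in EDL, 9.27, 9.53 and 9.59 in myotubes, and 10.87, 11.13 and 11.15 in myoblasts. Only soleus and myoblasts overlapped. It fell in myotubes, against myoblasts, by 1.59 (SE 0.11, adjusted p = 4.8e-07), and the second probe (A_51_P375378; chr1:14155865-14155924) fell by 1.67 (adjusted p = 1.5e-05). Against myotubes it rose in EDL by 2.56 and 1.97 on the 2 probes and in soleus by 1.67 and 1.24. With spike-in scaling both soleus calls ended (0.45 and 0.02), as did the EDL call on the second probe (1.03, adjusted p = 0.072). The soleus call on the second probe also ended with quantile normalization (0.65) and in the authors' values (0.64). This probe was well above background on only 2 of 3 myotube arrays. With normexp background correction its calls against myotubes ended, at 0.99 in EDL (adjusted p = 0.414) and 1.48 in soleus (adjusted p = 0.166). Soleus minus EDL was -0.88 (SE 0.11, adjusted p = 1.8e-04) and -0.72 (SE 0.18, adjusted p = 0.012), with no overlap, and both were under the size set for a call.

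Eya2 was measured above background in the muscles alone. Its probe (A_51_P334209; chr2:165460466-165460525, plus strand) read 6.41, 6.29 and 6.21 in soleus and 6.80, 6.73 and 6.59 in EDL, against 1.76, 1.34 and 1.35 in myotubes and 1.97, 1.46 and 2.10 in myoblasts. It was at least 7.14-fold higher in soleus and at least 9.44-fold higher in EDL than in myotubes (adjusted p = 2.6e-09 and 1.3e-09). With normexp background correction both calls ended, at 2.01 in soleus (adjusted p = 0.150) and 1.52 in EDL (adjusted p = 0.316). Between the muscles it differed by -0.40 (95% confidence interval -0.79 to -0.02, adjusted p = 0.114), soleus minus EDL. This call was not made, although the 3 soleus arrays lay below the 3 EDL arrays. The spread behind this p includes the cultures at background (SD 0.34 in myoblasts and 0.24 in myotubes), beside 0.10 in soleus and 0.11 in EDL.

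Eya4, a cofactor also known for its role in the inner ear and heart, was lowest in soleus on all 3 of its probes. The brightest (A_52_P295933; chr10:22792585-22792644, minus strand, designed on a cDNA clone that the array file names Eya4) read 9.40, 9.53 and 9.45 in soleus, 11.77, 11.91 and 11.76 in EDL, 11.94, 12.22 and 12.19 in myotubes, and 10.95, 11.20 and 11.22 in myoblasts, and none of these groups overlapped. In soleus it was 5.09-fold lower than in EDL (difference -2.35, SE 0.11, adjusted p = 2.1e-07). The other probes (A_52_P86424 at chr10:22793701-22793760, and A_52_P608186 at chr10:22801043-22803330, a span of 2288 bases that is longer than a probe) gave -2.16 (adjusted p = 6.9e-07) and -1.44 (adjusted p = 9.2e-04). Soleus was lower than myotubes by -2.66, -2.75 and -2.66, and lower than myoblasts by -1.66, -1.92 and -1.42, all called. EDL minus myotube was -0.31, -0.59 and -1.21, and only the last was called, a call that ended without EDL replicate 1 (-0.97). Myotube minus myoblast was 0.99, 0.84 and 1.23, and again only the probe A_52_P608186 passed the size set for a call.

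**Figure D1:**
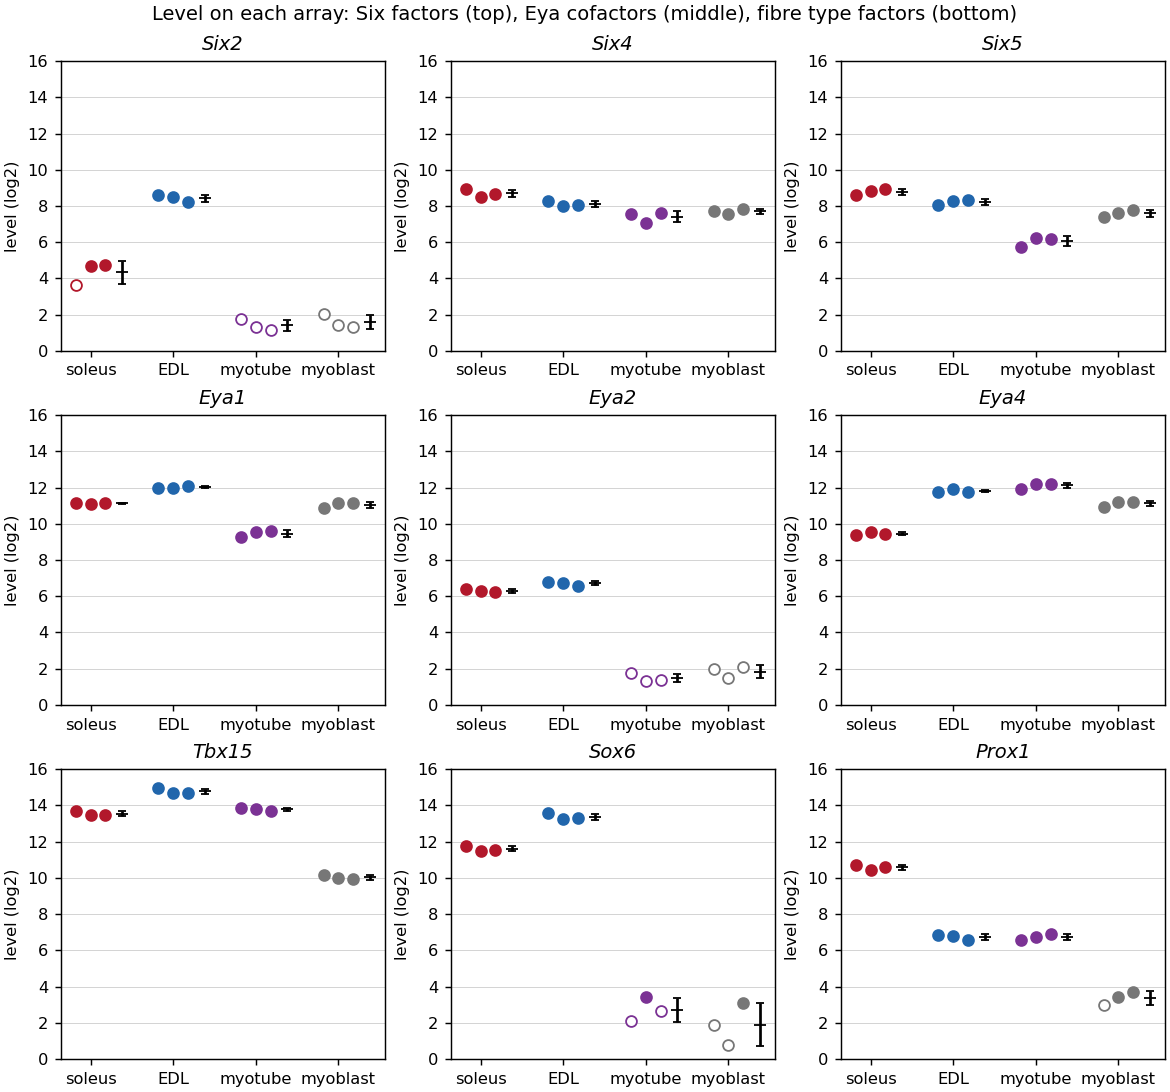
Level (log2 signal scaled to the 75th percentile of the array) of the probe with the highest mean for each of the 9 genes, by group. Each point is 1 array, an open point was not well above background, and the bar beside the points is the mean ± SD of 3 arrays. Six2 and Sox6 are higher in EDL than in soleus, Prox1 is higher in soleus than in EDL, and Eya1 and Six5 are lowest in myotubes.

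Tbx15 was higher in EDL, soleus and myotubes than in myoblasts. Its brightest probe (A_52_P232802; chr3:99483039-99483098, plus strand) read 13.70, 13.46 and 13.47 in soleus, 14.95, 14.68 and 14.70 in EDL, 13.88, 13.78 and 13.72 in myotubes, and 10.17, 10.00 and 9.91 in myoblasts. It was 13.6-fold higher in myotubes than in myoblasts (difference 3.77, SE 0.11, adjusted p = 1.0e-09). The 2 other probes (A_51_P169659 at chr3:99482760-99482819 and A_52_P648635 at chr3:99481467-99481526) rose by 3.78 and 3.63. In soleus the 3 probes were lower than in EDL, by -1.24 (SE 0.11, adjusted p = 2.2e-05), -1.32 (SE 0.16, adjusted p = 1.6e-04) and -1.60 (SE 0.41, adjusted p = 0.015). The call of the third probe ended without EDL replicate 1 (adjusted p = 0.055) or without soleus replicate 2 (adjusted p = 0.056). Against myotubes, EDL was higher by 0.99, 1.16 and 0.56, with only A_51_P169659 called, and soleus minus myotube was -0.25, -0.16 and -1.04, with only A_52_P648635 called (adjusted p = 0.045). Without myotube replicate 1 that value was -0.64 (adjusted p = 0.173), and the call also ended without myotube replicate 3, soleus replicate 2 or soleus replicate 3. With spike-in scaling the EDL call on A_51_P169659 ended (0.23).

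Sox6 was high in both muscles and near background in the cultures, on 5 probes of which 4 were tested. The brightest (A_52_P282171; chr7:115266015-115266074, minus strand) read 11.75, 11.50 and 11.55 in soleus and 13.56, 13.27 and 13.31 in EDL, against 2.08, 3.39 and 2.67 in myotubes and 1.87, 0.74 and 3.08 in myoblasts. Each culture was well above background on 1 of 3 arrays, and the muscles on all. It was higher in soleus (adjusted p = 7.5e-08) and in EDL (adjusted p = 1.7e-08) than in myotubes, and no exact size is given against a group that 1 of 3 arrays measured. The 3 other tested probes (A_52_P475356 at chr7:115263053-115263112, A_52_P394652 at chr7:115268127-115268186 and A_52_P25089 at chr7:115332845-115332904, minus strand) were well above background on 0 of the culture arrays. Against myotubes they were at least 26.1-fold, 39.4-fold and 9.53-fold higher in soleus, and at least 125-fold, 46.5-fold and 17.1-fold higher in EDL. With normexp background correction both calls of A_52_P25089 ended, at 2.19 in soleus (adjusted p = 0.110) and 2.07 in EDL (adjusted p = 0.137).

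Between the muscles the probes of Sox6 gave differences of unequal size. Soleus minus EDL was -1.78 (SE 0.50, adjusted p = 0.023) on A_52_P282171 and -2.26 (SE 0.19, adjusted p = 1.2e-05) on A_52_P475356, both called. It was -0.24 (SE 0.35, adjusted p = 0.672) on A_52_P394652, where soleus read 8.82, 8.74 and 8.74 and EDL read 9.11, 8.92 and 8.99. It was -0.84 (SE 0.14, adjusted p = 1.2e-03) on A_52_P25089, where soleus read 6.75, 6.63 and 6.78 and EDL read 7.60, 7.55 and 7.54. Soleus was below EDL on every array of all 4 probes. The SE of each probe includes the spread of the cultures near background, which was widest on A_52_P282171 and A_52_P394652. The slide differences were -1.81, -1.77 and -1.76 on A_52_P282171 and -0.29, -0.18 and -0.25 on A_52_P394652. For A_52_P282171, leaving out single arrays of either muscle gave adjusted p of 0.047 to 0.064, and the call ended each time except without soleus replicate 1. The fifth probe (A_52_P284996; chr7:115331109-115331168) was not tested; it read 2.56, 1.79 and 4.58 in soleus and 2.69, 3.99 and 6.64 in EDL.

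Prox1 was the one gene of the 9 called higher in soleus than in EDL. Its tested probe (A_52_P563908; chr1:191819555-191819614, minus strand, designed on a cDNA clone that the array file names Prox1) read 10.72, 10.45 and 10.61 in soleus, 6.86, 6.78 and 6.57 in EDL, 6.56, 6.76 and 6.87 in myotubes, and 2.98, 3.43 and 3.71 in myoblasts. EDL and myotubes overlapped, soleus lay above both and myoblasts below. It was 14.5-fold higher in soleus than in EDL (difference 3.86, SE 0.18, adjusted p = 2.1e-07), and the slides gave 3.86, 3.67 and 4.04. It was 14.6-fold higher in soleus than in myotubes (adjusted p = 1.5e-08), and 10.2-fold higher in myotubes than in myoblasts (adjusted p = 6.4e-08), where 2 of 3 arrays read it well above background. EDL minus myotube was 0.0045 (95% confidence interval -0.39 to 0.40, adjusted p = 0.983), and this value was -0.36 with quantile normalization and -0.93 with spike-in scaling.

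The 2 other Prox1 probes were too dim to be tested. A_51_P369056 (chr1:191823947-191824006) read 5.30, 5.55 and 5.25 in soleus, 2.91, 4.51 and 3.85 in EDL, 3.93, 4.01 and 4.34 in myotubes, and 3.28, 3.12 and 3.11 in myoblasts. A_51_P369058 (chr1:191854278-191861335, a span of 7058 bases) read 4.99, 4.55 and 4.41 in soleus, 2.74, 4.16 and 3.88 in EDL, 1.66, 1.72 and 2.38 in myotubes, and 1.09, 0.80 and 2.54 in myoblasts. Soleus arrays were above all EDL arrays on both probes, with 2 of 3 soleus arrays and 1 of 3 EDL arrays well above background.

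**Figure D2:**
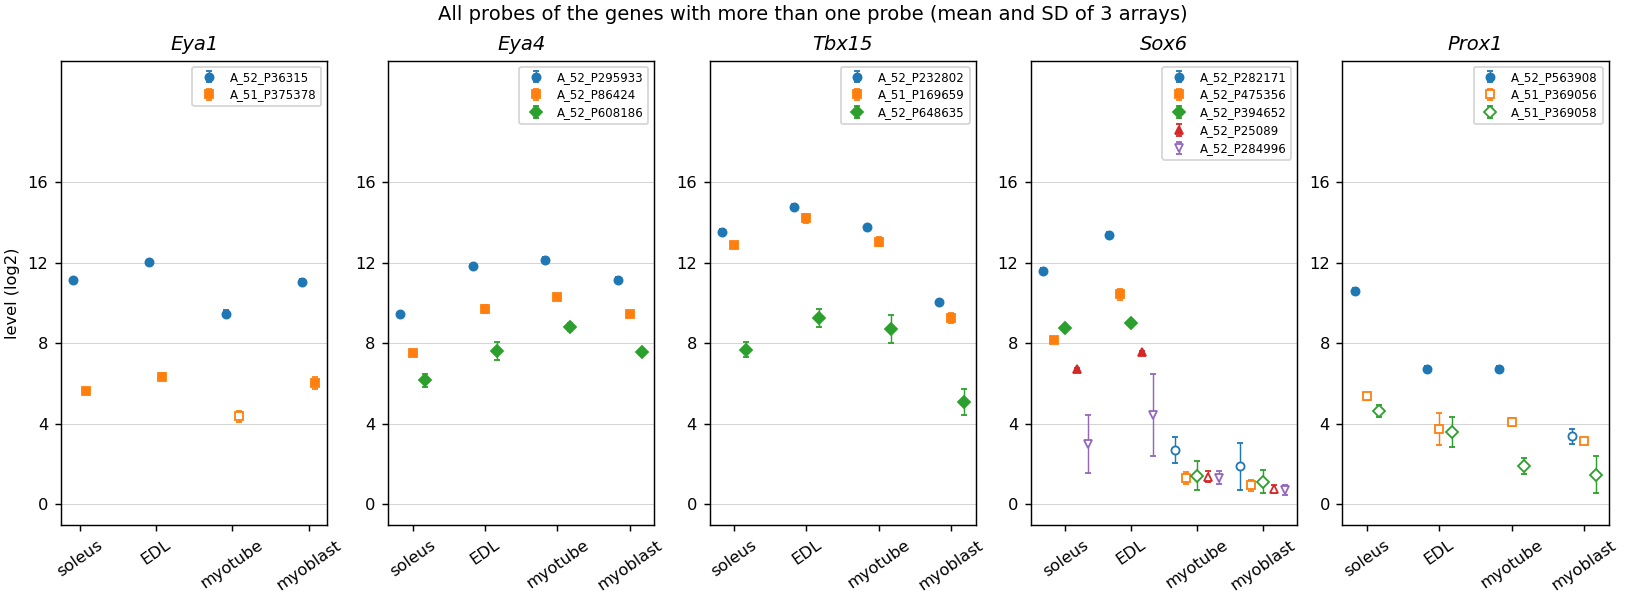
Level (log2 signal scaled to the 75th percentile of the array) of every probe of the 5 genes with more than 1 probe, by group. Points are means and bars SDs of 3 arrays, and an open point was not well above background on all 3 arrays. The 3 Eya4 probes are lowest in soleus, the 3 Tbx15 probes are lowest in myoblasts, and the Sox6 probes are high in both muscles.

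The comparison of soleus with EDL sets a slow oxidative muscle against a fast glycolytic one. Of the 17 tested probes, 1 was higher in soleus (Prox1) and 9 were lower (Six2, the 3 Eya4 probes, the 3 Tbx15 probes and 2 Sox6 probes). Among all tested probes 4.97% were called higher and 4.48% lower. The groups of all 17 probes did not overlap, against 43.1% of all tested probes. The median difference of the 17 probes was -1.24, beside -0.03 over all tested probes. By role, 1 of 3 sine oculis probes, 3 of 6 Eya probes and 5 of 8 fibre type factor probes were lower. Probes of a gene are not independent, and Six2 passed the filter through EDL alone. The genes were chosen with earlier results of these data known, so these counts and medians describe them and test nothing. With normexp background correction 3 of the 10 calls held, those of Eya4 A_52_P295933 and of the 2 brighter Tbx15 probes; Prox1 was then 2.79 (adjusted p = 0.087) and Six2 -0.83 (adjusted p = 0.643).

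**Figure D3:**
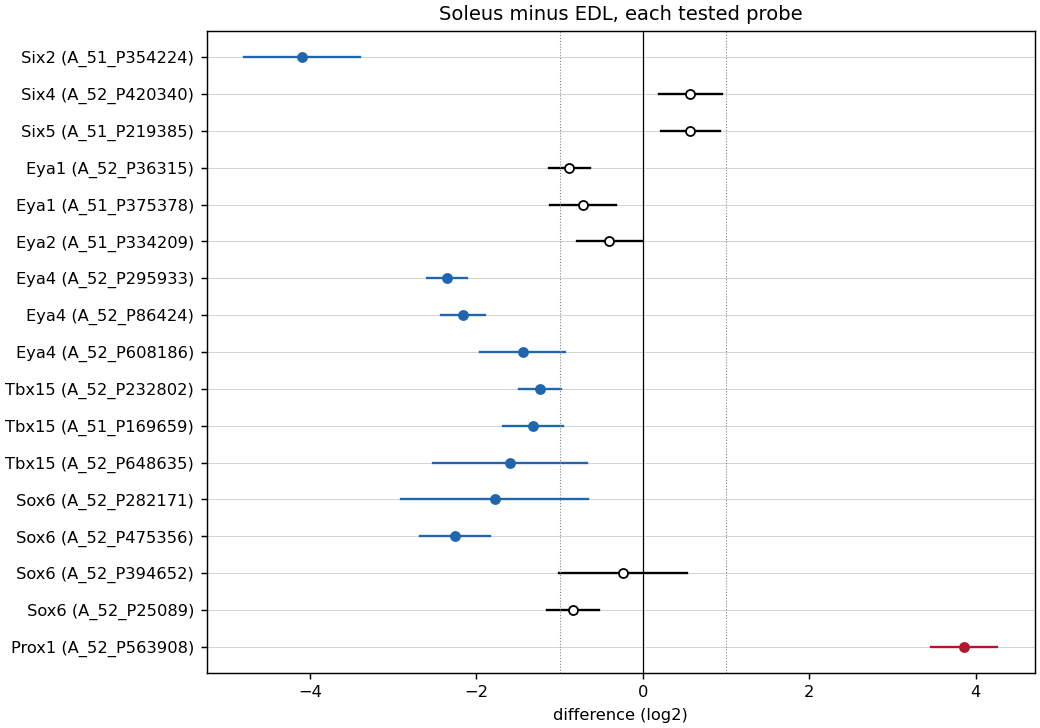
Soleus minus EDL difference (log2) of the 17 tested probes of the 9 genes, with 95% confidence intervals from limma. Filled points were called, red higher and blue lower in soleus, open points were not, and dotted lines mark the size of 1 set for a call. Prox1 stands at 3.86 and Six2 at -4.09, a size that is not exact because soleus replicate 1 was not well above background.

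Markers of other cells were set beside this comparison. Prox1 also marks lymphatic endothelium, and of 4 tested lymphatic probes 1 was higher in soleus, that of Mmrn1 (1.66, adjusted p = 5.7e-03), and 0 were lower. The summed level of the lymphatic list was 9.76 to 9.96 on soleus and 8.90 to 9.20 on EDL arrays, and each of its 4 genes on the array was well above background on at least 1 array of both muscles. Of 10 Schwann cell probes 4 were higher in soleus (2 each of Mbp and Pmp22), and the summed level was 15.15 to 15.22 in soleus and 14.09 to 14.11 in EDL. Adipocyte markers had 2 of 7 probes higher (Cfd and Adipoq; summed level 17.80 to 17.96 in soleus and 17.28 to 17.37 in EDL), and satellite cell markers 2 of 7 (Chrdl2 and Calcr; 11.83 to 12.11 in soleus and 11.70 to 11.91 in EDL). Fibroblast markers had 1 of 11 called higher (Postn) and 0 called lower. At an unadjusted limma p under 0.05, whatever the size, 1 was higher and 6 lower. Their median difference was -0.42, and the summed level was 16.92 to 17.01 in soleus and 17.30 to 17.57 in EDL. Tendon markers had 1 of 7 higher (Scx; 14.82 to 14.96 in soleus and 14.74 to 14.84 in EDL). Of 11 endothelial, 10 smooth muscle and 6 macrophage probes, 0 were called. At an unadjusted limma p under 0.05, whatever the size, 1, 5 and 1 of them were higher and 0, 1 and 0 lower. The part of these cells in the differences of the 9 genes was not tested.

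The comparison of muscle with myotubes sets adult fibres in their tissue against fused cells in culture. In soleus minus myotube, 11 of the 17 probes were higher and 4 lower, beside 24.3% of all tested probes called higher and 20.0% lower. The higher ones were those of Six2, Six4, Six5, Eya1, Eya2, the 4 Sox6 probes and Prox1, and the lower ones the 3 Eya4 probes and 1 Tbx15 probe. In EDL minus myotube, 10 were higher and 1 lower, beside 26.0% and 20.4% of all tested probes. The higher ones were those of Six2, Six5, Eya1, Eya2, the 4 Sox6 probes and 1 Tbx15 probe, and the lower one was an Eya4 probe. The medians were 1.67 in soleus minus myotube and 1.97 in EDL minus myotube, beside 0.09 and 0.14 over all tested probes. With the 5 probes that were not above background in myotubes set at their bounds, the medians were 1.29 and 1.97. The Six2 value for soleus used there is not a strict bound, because soleus replicate 1 was also not well above background. Six2, Eya2 and the 4 Sox6 probes passed the filter only through muscle arrays, so that their higher level there was a condition of being tested. With normexp background correction 9 calls were left in soleus minus myotube and 6 in EDL minus myotube. Those of Six2, Eya2 and Sox6 A_52_P25089 were among the calls that ended in both.

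**Figure D4:**
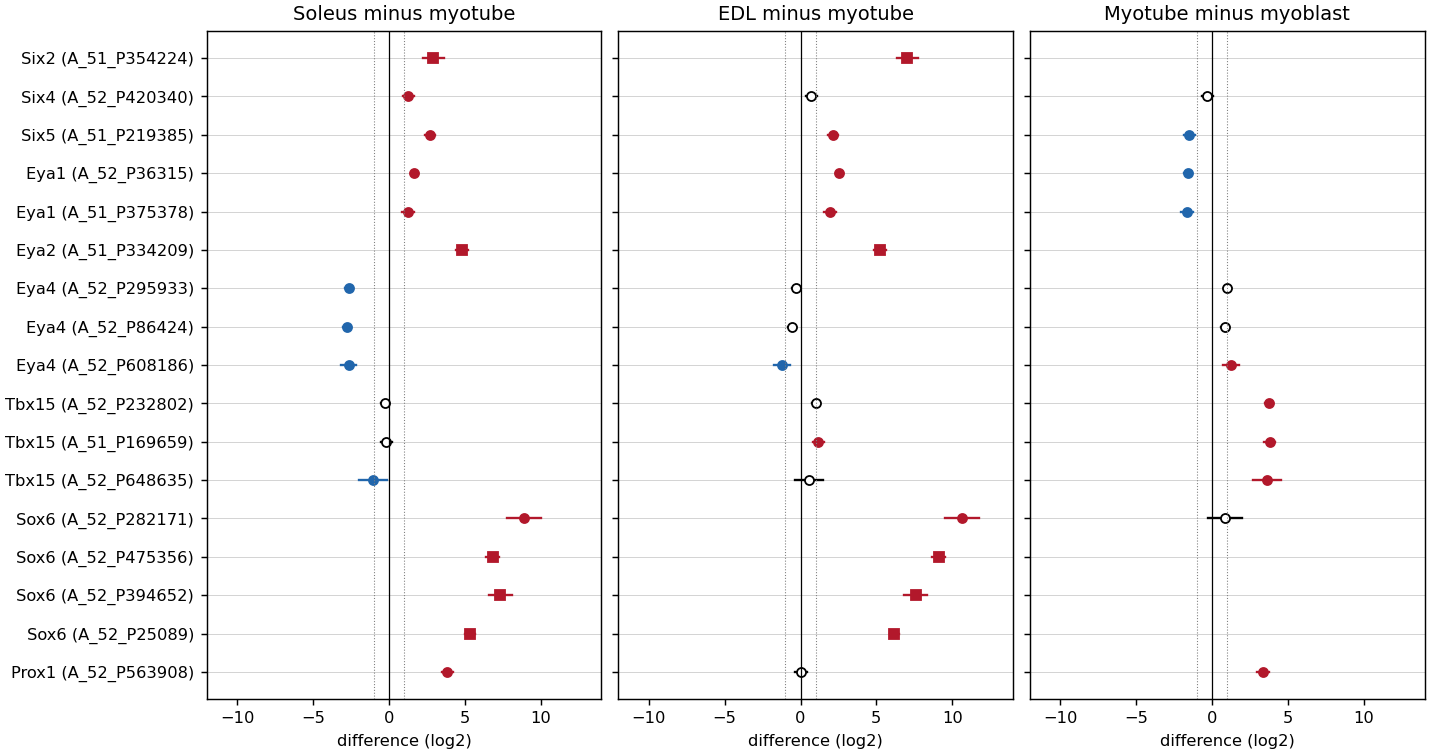
Differences (log2) of the 17 tested probes of the 9 genes in soleus minus myotube, EDL minus myotube and myotube minus myoblast, with 95% confidence intervals from limma. Filled points were called, red higher and blue lower, open points were not, and dotted lines mark the size of 1. A square has 1 group not well above background on any array, so its size is not exact, and pairs with neither group above background are left out. Sox6, Eya2 and Six2 are higher in both muscles, Eya4 is lower in soleus, and Tbx15 and Prox1 are higher in myotubes than in myoblasts.

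Markers of other cell types also differed in this comparison, but not all in the same direction. All 11 tested endothelial probes were higher in both muscles than in myotubes, and their summed level was 15.51 to 15.62 in soleus, 15.43 to 15.47 in EDL, 7.05 to 7.75 in myotubes and 10.24 to 10.49 in myoblasts; Cdh5 and Emcn were well above background on 0 culture arrays. All 7 adipocyte probes were higher too, with summed levels of 17.80 to 17.96 in soleus, 17.28 to 17.37 in EDL, 5.88 to 7.79 in myotubes and 7.83 to 8.11 in myoblasts, and Adipoq and Cfd were not above background in either culture. Of 10 Schwann cell probes, 10 were higher in soleus and 9 in EDL, with summed levels of 15.15 to 15.22 in soleus, 14.09 to 14.11 in EDL, 11.71 to 11.90 in myotubes and 13.57 to 13.70 in myoblasts. Of 11 fibroblast probes, 11 were higher in soleus and 10 in EDL, with summed levels of 16.92 to 17.01 in soleus, 17.30 to 17.57 in EDL, 13.43 to 13.74 in myotubes and 15.77 to 16.07 in myoblasts. Muscle fibre markers were higher as well, 7 of 8 probes in each muscle. So were 4 of 6 macrophage probes in each. Other lists went both ways. Of 10 smooth muscle probes 7 were higher and 3 lower in each muscle, and of 7 tendon probes 6 and 1. Of 4 lymphatic probes 2 were higher and 2 lower in each muscle. Of 7 satellite cell probes 3 were higher and 3 lower in soleus, and 3 and 2 in EDL. The part of these cells in the muscle minus myotube differences of Six2, Eya2 and Sox6 was not tested.

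The comparison of myotubes with myoblasts sets differentiated cells against proliferating cells of the same line. The groups also differ in medium, in the replating step and in confluence (50% given for myoblasts, 90% for myotubes). These differences cannot be told apart from differentiation. Of the 17 probes, 5 were higher (1 Eya4 probe, the 3 Tbx15 probes and Prox1) and 3 lower (Six5 and both Eya1 probes), beside 18.4% of all tested probes called higher and 16.8% lower. The median was 0.60, beside 0.02 over all tested probes. Six2, Eya2 and 3 Sox6 probes were not well above background in either culture, so no fold between the cultures is given for them, and without these 5 probes the median was 0.92. With normexp background correction Prox1 was -0.020 in place of 3.36, and the calls of the dimmer Eya1, Eya4 and Tbx15 probes were lost.

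The muscles were also set against myoblasts. In soleus minus myoblast 11 probes were higher and 3 lower (the Eya4 probes), beside 29.3% and 25.7% of all tested probes. In EDL minus myoblast 10 were called higher and 0 lower, beside 31.0% and 25.8%. At an unadjusted limma p under 0.05, whatever the size, the counts were 14 higher and 0 lower. Six4 (0.41), Six5 (0.62), Eya1 A_52_P36315 (0.97) and Eya4 A_52_P295933 (0.69) had an adjusted p under 0.05 but were under the size set for a call. The medians were 2.74 and 4.19, beside 0.09 and 0.15 over all tested probes, and 2.59 and 3.75 with the 5 probes not above background in myoblasts at their bounds. Again the Six2 value for soleus is not a strict bound. Here too Six2, Eya2 and the 4 Sox6 probes passed the filter only through muscle arrays. Their higher level in muscle was thus a condition of being tested, and it enters these counts and medians. Tbx15 (A_52_P232802) was higher than in myoblasts by 3.52 in soleus and 4.75 in EDL, and Prox1 (A_52_P563908) by 7.22 in soleus and 3.36 in EDL. The comparisons share groups, so their values are not independent of each other.

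Among other genes of the Pax, Eya and Dach network, 8 were listed and 10 of their 17 probes, for 5 genes, were tested. In soleus minus EDL 2 were higher and 0 lower, with a median of 0.31. Both higher probes were of Dach2, a corepressor related to the Dachshund factors that work with Eya proteins: 2.81 (SE 0.15, adjusted p = 4.8e-07) on A_51_P126167, with a level of 9.18 ± 0.13 in soleus and 6.37 ± 0.06 in EDL (SD, n = 3), and 3.56 (SE 0.40, adjusted p = 9.0e-05) on A_52_P247559. In myotube minus myoblast the list had 0 called in either direction. At an unadjusted limma p under 0.05, whatever the size, 3 were higher and 0 lower there. In soleus minus myotube 7 were called higher and 0 lower, and in EDL minus myotube 6 higher and 0 lower.

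Of 33 tested probes of 19 other fibre type regulators, 4 were higher and 8 lower in soleus than in EDL, with a median of 0.08. The largest difference was that of Maf, a large Maf factor of fast glycolytic fibres. Its 4 called probes were lower by -3.99 (A_52_P1074873; 6.38 ± 0.11 in soleus and 10.38 ± 0.11 in EDL), -3.23, -2.79 and -1.44. Mafa, a related large Maf factor, was lower by -2.85 (SE 0.49, adjusted p = 1.5e-03), and Tbx1, a T-box factor, by -2.40 (SE 0.11, adjusted p = 2.0e-07; 12.79 ± 0.05 in soleus and 15.19 ± 0.12 in EDL).

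The genes closest in pattern to each of the 9 were found by the root mean square difference of centred log2 levels over the 12 arrays, for the 6 genes well above background on at least 9 arrays. For Tbx15 they were Myom2 (0.20), Srr and Dusp13, of which Myom2 encodes a protein of the sarcomere's M-band. For Eya1 they were Nmb (0.17), Hmgb1 and Col5a3, and for Eya4 Cbfb (0.28), Prss23 and Col19a1. For Six4 they were Zmynd11 (0.16), Parp4 and Zbtb10, and for Six5 Gnai1 (0.24), Kitl and Mrps35. For Prox1 they were 5033421B08Rik (0.30), Amhr2 and B3galt2. Among these 6 genes themselves the closest pair was Six5 and Eya1 (0.55) and the farthest was Eya4 and Prox1 (3.29). These distances describe 12 arrays that share their 4 groups, and no test was made of them.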

How the data were processed

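RNA of 12 samples was hybridized to one-colour Agilent arrays. Per the file headers, the deposited scanner files hold the processed signal of each spot, an intensity from which Agilent Feature Extraction (version 10.5.1.1) had taken off background and spatial trends within the array, with no scaling between arrays. The authors' own deposited values are also an intensity; their normalization is not given in the sources used here, and they served as an alternative only. Here control and outlier spots were left out, spots of a probe were averaged, and log2 values were set relative to the 75th percentile of their array, then raised by a constant of 9.65. Of 41174 probes, 28618 were kept, being well above background on the 3 arrays of 1 group or more. Probe names are those of the array file, and coordinates those of its design (mm8); 14 transcription starts were read from a RefSeq table of build GRCm38.p6.

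Differences came from limma 3.58.1 (R 4.3.3, lmFit and eBayes, two-sided) on 12 arrays with 4 group means. The fit was made per probe, with 8 residual and 1.85 prior degrees of freedom, and p was adjusted over all kept probes. It was also run on simulated arrays without slide effects, which do not cover the pairing by slide. Intervals are at 95%. A bound ("at least") sets the mean of the bright group against, per array, the higher of the dim probe's signal and the lowest signal well above background. Cell type and fibre lists were counted by probe, and a list's summed level is the log2 of the sum of its probes' scaled signals. Named are all probes of the 9 genes, up to 3 genes with the largest called soleus minus EDL difference of the network and regulator lists, the 3 nearest genes in pattern, and markers where a label or a moving gene needed them. The members, the lists and the motifs were chosen with earlier results of these data known.

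Per the file headers, the arrays lay on 3 slides, each with all 4 groups, and the replicate numbers follow the slides. The first slide has its own scan day. Each group kept the same position on the slides, and those effects cannot be told apart. Deviations from the group means correlated at 0.211 to 0.620 (18 pairs) on the same slide and at -0.446 to 0.175 (36 pairs) on different slides, so the numbers pair the samples. For EDL and soleus, a shared slide and a possible shared mouse cannot be told apart. The alternatives were the replicate block, other scalings and background correction, the authors' values, no filter, 1 probe per gene name, only the compared groups, and leaving out arrays.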

Additional observations from a re-analysis of the deposited data

Results flagged for a closer look

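The 3 Tbx15 probes were picked out because the muscles moved in opposite directions against myotubes: EDL minus myotube was above 0 and soleus minus myotube below 0 on each. The difference between these, which is soleus minus EDL, was tested directly and called on all 3: -1.24 on A_52_P232802, -1.32 on A_51_P169659 and -1.60 on A_52_P648635. Its sign follows from how the probes were picked, so these calls are not separate support. Of the separate muscle minus myotube differences, only EDL on A_51_P169659 (1.16) and soleus on A_52_P648635 (-1.04) were called. With spike-in scaling the EDL call ended (0.23, adjusted p = 0.641), EDL minus myotube on A_52_P648635 was -0.38, and soleus was called lower on the other probes, by -1.47 on A_52_P232802 and -1.38 on A_51_P169659. The soleus call on A_52_P648635 ended with no filter on dim probes (adjusted p = 0.055), with only the compared groups (adjusted p = 0.054), without myotube replicate 1 (-0.64, adjusted p = 0.173) or 3, and without soleus replicate 2 or 3.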

How the results depend on the processing

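With the replicate block (paired by slide) 10 probes were called in soleus minus EDL, 15 in soleus minus myotube, 11 in EDL minus myotube, 8 in myotube minus myoblast, 14 in soleus minus myoblast and 10 in EDL minus myoblast, as without it, and the block changed no call. Leaving out 1 array in turn gave 8 to 10, 14 to 15, 10 to 12, 8 to 10, 14 to 15 and 10 to 11 calls in these comparisons, in that order. Counts also stayed within 1.5 times with spike-in scaling, quantile normalization, no filter on dim probes, only the compared groups, and without replicate 1 of every group, but the called probes were not all the same. Spike-in scaling ended 10 calls and added 7. Those it ended in soleus minus EDL were Sox6 (A_52_P282171; -2.06, adjusted p = 0.082) and Eya4 (A_52_P608186; -1.73, adjusted p = 0.085), and it ended Eya4 (A_52_P608186; 0.89) in myotube minus myoblast. Those it added were lower calls, 2 of Eya4 in EDL minus myotube, 2 of Tbx15 in soleus minus myotube, 1 of Eya4 in EDL minus myoblast and 2 of Eya1 in soleus minus myoblast. Quantile normalization ended 1 call and added 2. Normexp (offset 50) ended 36 calls, added 2 and left 3, 9, 6, 5, 6 and 5 calls in the same order; the cause was not tested. In the authors' values, which were complete for 11 of the 17 probes, the counts fell to 8 in soleus minus myotube, 5 in EDL minus myotube, 9 in soleus minus myoblast and 4 in EDL minus myoblast. With 1 probe per gene name, which leaves 9 of the 17 probes, they were 5, 8, 5, 4, 7 and 5 in the order of all 6 comparisons.

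The differences that turned sign were none of them called before, except Prox1 in myotube minus myoblast with normexp (-0.020) and Six5 in soleus minus myoblast with spike-in scaling (-0.37). With quantile normalization Prox1 was -0.36 in EDL minus myotube, and Eya1 (A_51_P375378) -0.33 and Eya4 (A_52_P608186) -0.22 in EDL minus myoblast. In the authors' values Prox1 was -0.39, Eya1 -0.36 and Eya4 -0.25 in those same comparisons. With spike-in scaling, which moves all probes of a comparison together, Six4 was -0.22, Prox1 -0.93 and Tbx15 (A_52_P648635) -0.38 in EDL minus myotube. In EDL minus myoblast Six4 was -0.87, Six5 -0.66, the 2 Eya1 probes -0.32 and -0.98, and the 3 Eya4 probes -0.59, -1.03 and -1.26. In soleus minus myoblast Six4 was -0.58 and Eya1 -1.48. With normexp Sox6 (A_52_P282171), read above background on 1 of 3 arrays of each culture, was -1.18 in myotube minus myoblast. In soleus minus EDL Eya2 was then 0.49, Eya1 (A_51_P375378) 0.48, and Sox6 0.0076 (A_52_P394652) and 0.12 (A_52_P25089). In EDL minus myoblast Six4 was -0.19, Six5 -0.025, Eya1 -0.56 and Eya4 -0.36, and in soleus minus myoblast Eya1 was -0.093. Without replicate 1 of every group, Prox1 was -0.14 in EDL minus myotube and Eya1 -0.0093 in soleus minus myoblast.

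Leaving out single arrays gave -0.081 to 0.086 for Prox1 in EDL minus myotube, -0.18 to 0.26 for Eya4 (A_52_P608186) in EDL minus myoblast, and -0.010 to 0.13 for Eya1 in soleus minus myoblast. Signal over background limits Six2, Eya2 and 3 Sox6 probes in the cultures, where their levels are bounds and no difference between the cultures was followed. It also limits the fourth Sox6 probe in the cultures, and the 3 probes of Sox6 and Prox1 that were not tested. Six2 in soleus, Eya1 (A_51_P375378) in myotubes and Prox1 (A_52_P563908) in myoblasts were well above background on only 2 of 3 arrays.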
